A study of Aloe vera with 7 samples.

Results

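UDP-glycosyltransferases (UGTs) form a large plant enzyme family, and 45 of its genes could be followed in root and leaf RNA of Aloe vera. They were taken as the probe sets that carry 1 gene in the platform's annotation and whose gene symbol is UGT followed by a digit, which gave 45 of the 10991 genes named by single-gene probe sets. All 45 had values on all 6 RNA arrays, and each gene had 1 probe set. No filter on low values was applied here, but whether probe sets were left out before deposit was not assessed. A further 3 probe sets that pair a UGT symbol with another gene were left out, namely those of UGT73B2 with UGT73B3, of UGT89B1 and of UGT71D1. The members fall into 11 UGT numbers: 8 genes of UGT71, 7 each of UGT73 and UGT76, 5 each of UGT84 and UGT85, 4 of UGT72, 3 each of UGT74 and UGT78, and 1 each of UGT80, UGT87 and UGT88.

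Root RNA and leaf RNA, with 3 arrays each, had been hybridised to the Affymetrix ATH1 array, made for the model plant Arabidopsis thaliana, and 250 ng of total RNA was labelled per array. The labels speak of 1 mature plant kept in the laboratory, name no treatment, genotype or age beyond mature, and leave unsaid whether the replicates are separate plants. The p-values therefore reflect only the spread among these arrays, which may be technical. Binding of Aloe RNA to Arabidopsis probes is what was measured, and gene names and roles below are those of Arabidopsis. Each value is a log2 difference from the median of its probe set over the 6 RNA arrays, so differences between tissues are given but no signal levels, and detection above background could not be assessed. A smaller share of cells holding a transcript and less transcript per cell cannot be told apart in such tissue RNA.

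UGTs transfer a sugar, most often glucose from UDP-glucose, to small molecules such as plant hormones, phenylpropanoids, flavonoids, sterols and foreign compounds. The sugar makes the acceptor more soluble, often stores or inactivates it, and directs it to the vacuole, while beta-glucosidases can release it again. The family is sorted into lettered groups by sequence, and the number in a gene's name places it within them, so that UGT85 forms group G, UGT76 group H and UGT74 and UGT84 belong to group L. Aloe leaves are known for glycosylated phenolics such as aloin, an anthrone that carries glucose on a carbon.

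No UGT gene passed the test of root against leaf. In limma's moderated test over 18810 probe sets, with Benjamini-Hochberg adjustment and a threshold of 0.05, 0 of the 45 genes passed, against a background of 0.34% of all probe sets (0.0638% higher in root and 0.276% higher in leaf). At an unadjusted p under 0.05 there were 2 of 45, UGT85A5 and UGT87A2, against a background of 9.56%. The lowest adjusted p of any member was 0.304, for UGT85A5. With replicate number as a block, 0 of 45 passed the adjusted threshold, where the background was 0.33%, and 3 had an unadjusted p under 0.05, where it was 12.3%. These 3 were UGT84A4 (0.0118), UGT85A5 (0.0165) and UGT76E11 (0.0217), while UGT87A2 stood at an unadjusted p of 0.0566 with the block.

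The family as a whole was centred near 0. Of the 45 genes, 25 had a higher mean in root and 20 in leaf, and the median root minus leaf difference was 0.0062 log2. Over all probe sets tested, 54.5% had a higher mean in root and the median was 0.034 log2. Differences among the 45 genes ran from -1.01 to 0.58 log2 with a standard deviation of 0.30 log2 across genes. Over all probe sets the range was -7.76 to 3.60 log2 and the standard deviation 0.46 log2. A difference smaller than 0.25 log2 in either direction was found for 32 UGT genes (71.1%) and for 54.2% of all probe sets. The median standard error was 0.25 log2 for UGT genes and 0.26 log2 for all probe sets (n = 3 arrays per tissue).

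**Figure D1:**
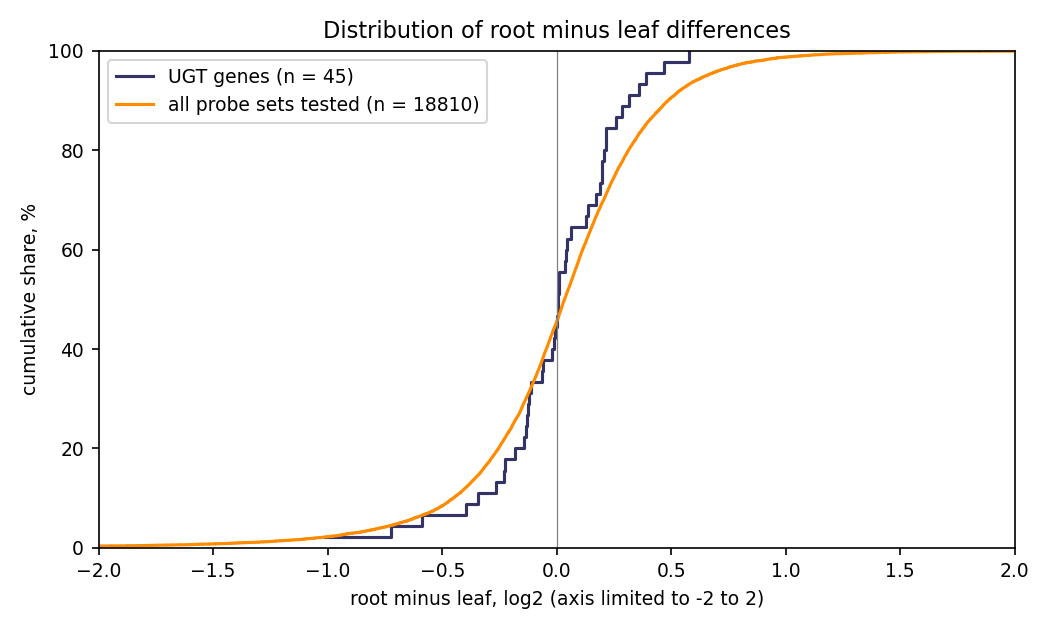
Cumulative share (%) of UGT genes (n = 45) and of all probe sets tested (n = 18810) against the root minus leaf difference in log2, with the axis limited to -2 to 2. The UGT line rises more steeply around 0, with 71.1% of its genes within 0.25 log2 of 0 against 54.2% of all probe sets.

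The intervals give the precision of the array differences, and say nothing of a transcript that its Arabidopsis probes do not bind. For 35 of the 45 genes (77.8%) the 95% confidence interval of root minus leaf lay wholly between -1 and 1 log2, inside a 2-fold difference either way, compared with 63.4% of all probe sets. The other 10 were UGT85A5, UGT84A4, UGT76E11, UGT73D1, UGT76E1, UGT73C2, UGT76E12, UGT87A2, UGT76D1 and UGT72E2, whose intervals reached past 2-fold on 1 side. Without the replicate block, only the intervals of UGT85A5 and UGT87A2 left out 0.

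**Figure D2:**
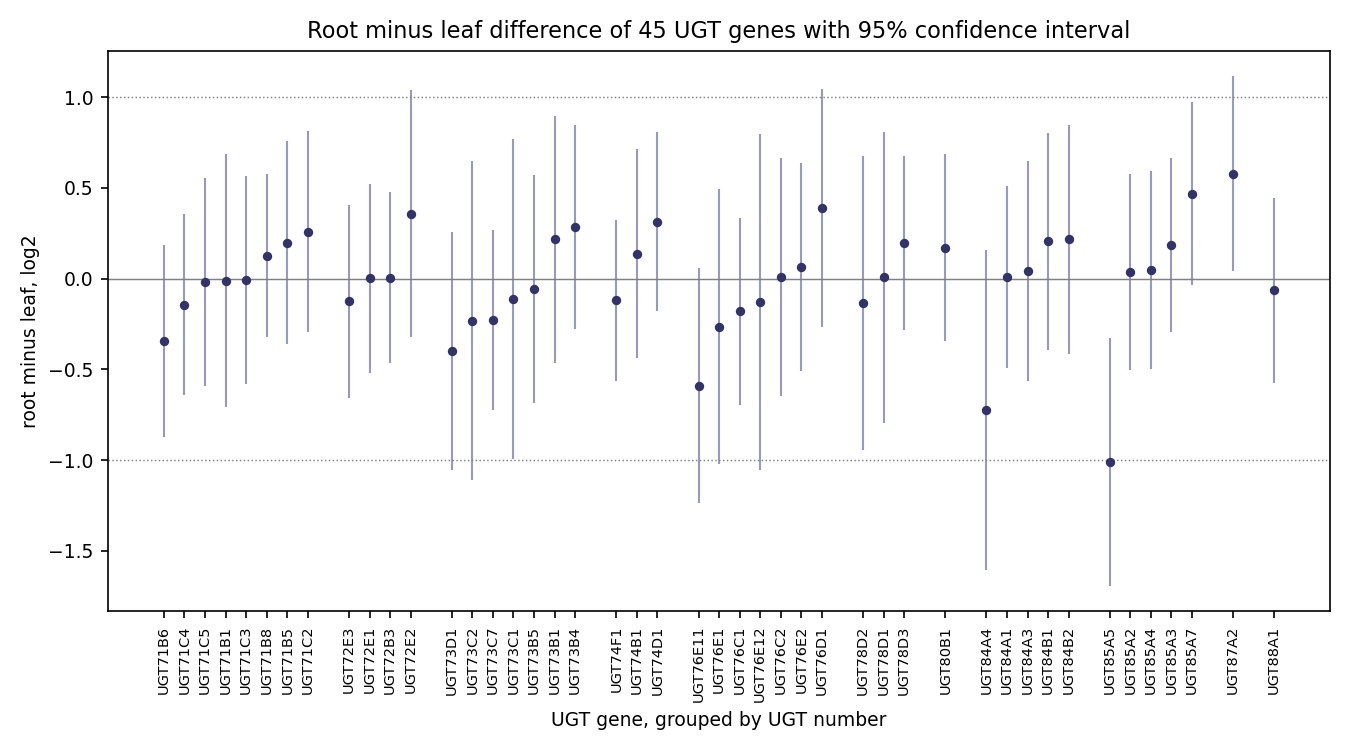
Root minus leaf difference (log2) of each of the 45 UGT genes, grouped by UGT number, as points with 95% confidence intervals from limma (n = 3 arrays per tissue). Dotted lines mark a 2-fold difference either way, and 35 of the 45 intervals lie between them.

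UGT85A5, a group G gene measured by probe set 255943_at, had the largest difference of the family and the smallest p. It stood at -0.094, -0.77 and -0.88 log2 in root replicates 1 to 3, against 0.094, 0.36 and 0.83 log2 in leaf replicates 1 to 3. All root arrays lay below all leaf arrays, although replicate 1 of both tissues lay close to 0. The root minus leaf difference was -1.01 ± 0.29 log2 (SE, n = 3 arrays per tissue), 2.01-fold higher in leaf, with a 95% interval of -1.69 to -0.33 log2 and an adjusted p of 0.304 in limma, which did not pass. The other UGT85 genes did not share this direction. UGT85A7, on probe set 255961_at, stood at 0.15, 0.24 and 0.029 log2 in root replicates 1 to 3, against -0.029, -0.36 and -0.60 log2 in leaf replicates 1 to 3. Here all root arrays lay above all leaf arrays, with a difference of 0.47 ± 0.22 log2 and an adjusted p of 0.574. UGT85A3 (0.19 ± 0.21 log2), UGT85A4 (0.046 ± 0.24 log2) and UGT85A2 (0.036 ± 0.23 log2) lay between them, each within its standard error of 0. UGT85 thus had the widest range of differences of any UGT number, 1.48 log2, around a median of 0.046 log2, and the difference between its members was not tested.

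UGT87A2, the single UGT87 gene measured, acts in flowering time in Arabidopsis. On probe set 267300_at it stood at 0.45, 0.18 and 0.056 log2 in root replicates 1 to 3, against -0.64, -0.35 and -0.056 log2 in leaf replicates 1 to 3. The tissues did not overlap, but the gap between the nearest arrays, both of replicate 3, was small beside the spread within each tissue. The difference was 0.58 ± 0.23 log2 (1.49-fold higher in root, unadjusted p = 0.0376, adjusted p = 0.474 in limma), the largest of the 45 genes on the root side. UGT85A7, with an unadjusted p of 0.0653, lay just outside that threshold. With UGT85A5 and UGT85A7, this made 3 of 45 genes whose root and leaf arrays did not overlap, against a background of 15.1% of all probe sets. Of these, 2 were higher in root and 1 in leaf, against backgrounds of 8.27% and 6.87%.

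**Figure D3:**
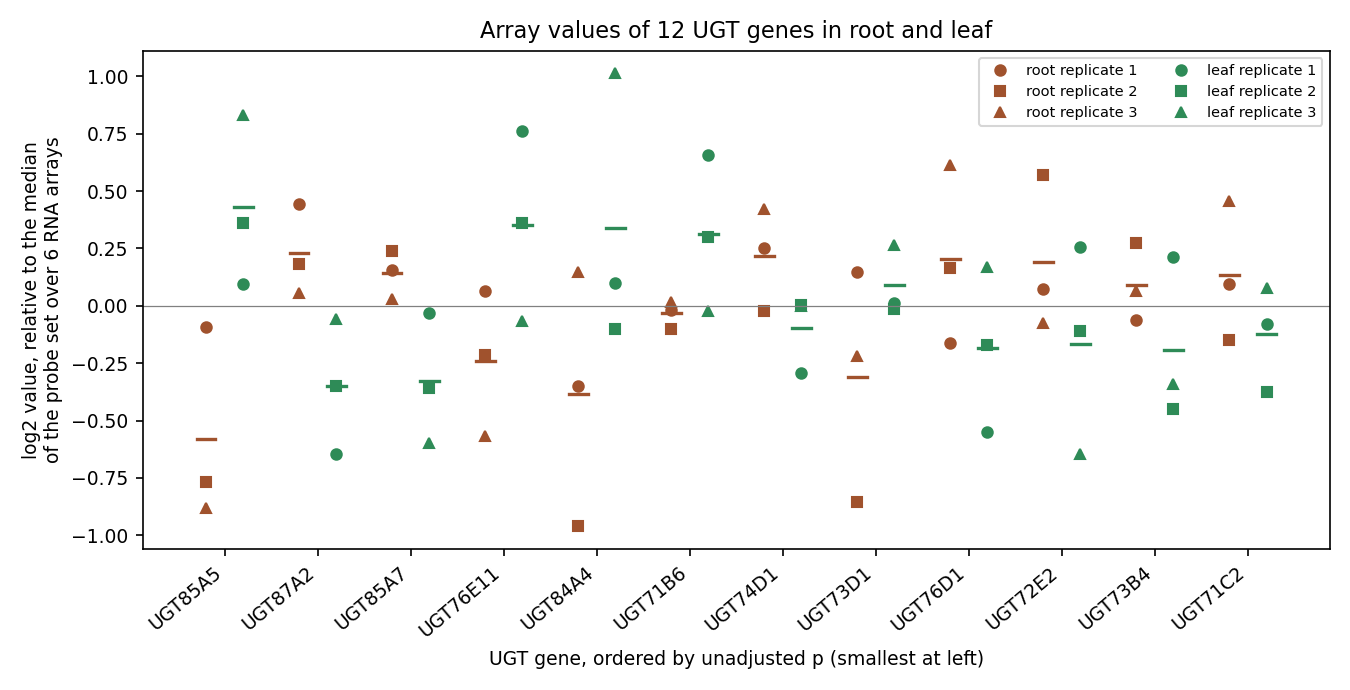
Log2 values, relative to the median of each probe set over the 6 RNA arrays, of the 12 UGT genes with the smallest unadjusted p, ordered by it from the left. Brown symbols are root arrays and green symbols leaf arrays, with 1 symbol shape per replicate number and a line at the mean of each tissue; root and leaf separate without overlap for UGT85A5, UGT87A2 and UGT85A7.

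Genes that conjugate hormones stood on both sides of 0. UGT71B6, which glucosylates abscisic acid, had -0.017, -0.10 and 0.017 log2 in root replicates 1 to 3, against 0.65, 0.30 and -0.021 log2 in leaf replicates 1 to 3. The leaf mean was carried by replicates 1 and 2, while leaf replicate 3 lay among the root arrays, and the difference was -0.34 ± 0.23 log2 (adjusted p = 0.727). UGT71C5, which also acts on abscisic acid, differed by -0.020 ± 0.25 log2. UGT74D1, which glucosylates auxin and its oxidised form, had 0.25, -0.024 and 0.42 log2 in root replicates 1 to 3, against -0.29, 0.0016 and -0.0016 log2 in leaf replicates 1 to 3. Root replicate 2 lay within the leaf range, and the difference was 0.31 ± 0.21 log2 (adjusted p = 0.738). The auxin-conjugating genes UGT84B1 and UGT84B2 also had higher means in root, by 0.21 ± 0.26 and 0.22 ± 0.27 log2. Both differences were smaller than their standard errors. Of the 2 cytokinin N-glucosyltransferases, UGT76C1 differed by -0.18 ± 0.22 log2 and UGT76C2 by 0.0089 ± 0.28 log2. UGT74F1, which glucosylates salicylic acid, differed by -0.12 ± 0.19 log2.

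UGT76D1, which glucosylates dihydroxybenzoic acids made from salicylic acid, had a larger difference with overlapping tissues. Its values were -0.16, 0.16 and 0.61 log2 in root replicates 1 to 3, against -0.55, -0.17 and 0.17 log2 in leaf replicates 1 to 3. Both tissues were lowest in replicate 1 and highest in replicate 3, so root was above leaf in each replicate number while the groups overlapped. The difference was 0.39 ± 0.28 log2, with an adjusted p of 0.757 in limma and 0.489 with the replicate block.

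Among genes of phenylpropanoid and lignin precursors, UGT84A4 had the second largest difference of the family. UGT84A enzymes make glucose esters of hydroxycinnamic acids such as sinapic acid. On probe set 245561_at UGT84A4 stood at -0.35, -0.96 and 0.15 log2 in root replicates 1 to 3, against 0.10, -0.10 and 1.01 log2 in leaf replicates 1 to 3. Within each replicate number root was lower than leaf, but root replicate 3 lay above leaf replicates 1 and 2, and the groups overlapped. The difference was -0.72 ± 0.38 log2 (adjusted p = 0.621), and with the replicate block its unadjusted p was 0.0118 and its adjusted p 0.253. UGT84A1 (0.0089 ± 0.22 log2) and UGT84A3 (0.041 ± 0.26 log2), which carry out the same type of reaction, lay close to 0.

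UGT72E enzymes glucosylate monolignols, the alcohols from which lignin is built. UGT72E2 had 0.074, 0.57 and -0.074 log2 in root replicates 1 to 3, against 0.26, -0.11 and -0.65 log2 in leaf replicates 1 to 3. Leaf replicate 1 lay above root replicates 1 and 3, and the difference was 0.36 ± 0.29 log2 (adjusted p = 0.782). UGT72E1 differed by 0.0024 ± 0.23 log2, UGT72E3 by -0.13 ± 0.23 log2 and UGT72B3 by 0.0046 ± 0.20 log2, each within its standard error of 0.

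The 3 flavonol glycosyltransferases of UGT78 gave no common direction. UGT78D1 attaches rhamnose, UGT78D2 glucose and UGT78D3 arabinose to the same position of flavonols. UGT78D1 differed by 0.0062 ± 0.35 log2, UGT78D2 by -0.13 ± 0.35 log2 and UGT78D3 by 0.20 ± 0.21 log2. Root replicate 2 lay far below the other arrays for UGT78D2, at 0.24, -1.03 and 0.15 log2 in root replicates 1 to 3, against 0.032, -0.032 and -0.24 log2 in leaf replicates 1 to 3. UGT78D1 was high in replicate 2 of both tissues, at 0.68 log2 in root and 0.67 log2 in leaf.

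In UGT76, the largest difference was that of UGT76E11. It stood at 0.067, -0.21 and -0.57 log2 in root replicates 1 to 3, against 0.76, 0.36 and -0.067 log2 in leaf replicates 1 to 3. Both tissues were highest in replicate 1 and lowest in replicate 3, and root was below leaf at each number, with only root replicate 1 and leaf replicate 3 overlapping. The difference was -0.59 ± 0.28 log2 (adjusted p = 0.580), and 0.307 was the adjusted p with the replicate block. UGT76E1, which glucosylates 12-hydroxyjasmonic acid, differed by -0.26 ± 0.33 log2, UGT76E12 by -0.13 ± 0.40 log2 and UGT76E2 by 0.064 ± 0.25 log2. The 7 UGT76 genes had a median difference of -0.13 log2, with 3 means higher in root and 4 in leaf.

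The 7 UGT73 genes, of group D, had a median of -0.11 log2, with 2 means higher in root and 5 in leaf. UGT73D1 stood at 0.15, -0.85 and -0.22 log2 in root replicates 1 to 3, against 0.014, -0.014 and 0.27 log2 in leaf replicates 1 to 3. Its difference of -0.40 ± 0.28 log2 (adjusted p = 0.752) rested on root replicate 2, without which it was -0.12 log2. UGT73B4, which can conjugate the explosive trinitrotoluene, had -0.064, 0.27 and 0.064 log2 in root replicates 1 to 3, against 0.21, -0.45 and -0.34 log2 in leaf replicates 1 to 3, a difference of 0.28 ± 0.24 log2 (adjusted p = 0.792) with overlapping tissues. UGT73B5, a stress-responsive gene, differed by -0.058 ± 0.27 log2, and UGT73B1 by 0.22 ± 0.29 log2. UGT73C1, which glucosylates cytokinins on oxygen, was low in replicate 3 of both tissues, at -0.94 log2 in root and -0.89 log2 in leaf, and differed by -0.11 ± 0.38 log2. UGT73C2 (-0.23 ± 0.38 log2) and UGT73C7 (-0.23 ± 0.21 log2) also had lower means in root.

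Of the 8 UGT71 genes, the most numerous UGT number here, 3 had a higher mean in root and 5 in leaf, with a median of -0.010 log2. UGT71C2 stood at 0.094, -0.15 and 0.46 log2 in root replicates 1 to 3, against -0.078, -0.37 and 0.078 log2 in leaf replicates 1 to 3. Root was above leaf at each replicate number while the tissues overlapped, and the difference was 0.26 ± 0.24 log2 (adjusted p = 0.812). The remaining UGT71 genes spanned -0.14 ± 0.22 log2 for UGT71C4 to 0.20 ± 0.24 log2 for UGT71B5, with UGT71B1 at -0.011 ± 0.30, UGT71C3 at -0.0089 ± 0.25 and UGT71B8 at 0.13 ± 0.19 log2. UGT88A1, of the same group E, differed by -0.065 ± 0.22 log2.

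UGT74B1, which adds the glucose in glucosinolate synthesis in Arabidopsis, differed by 0.14 ± 0.25 log2. UGT80B1, a sterol glucosyltransferase outside the lettered groups, differed by 0.17 ± 0.22 log2. Both differences were smaller than their standard errors.

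UGT values also differed between arrays of the same tissue. The standard deviation over the 45 genes on each array was 0.21, 0.39 and 0.35 log2 in root replicates 1 to 3. In leaf replicates 1 to 3 it was 0.31, 0.27 and 0.35 log2. This spread over genes does not separate differences between tissues from those between arrays. The median value was 0.028, -0.019 and 0.0012 log2 in root replicates 1 to 3, and 0.099, -0.032 and -0.056 log2 in leaf replicates 1 to 3. Leaf replicate 1 thus had the highest median and leaf replicate 3 the lowest, so the 3 leaf arrays enclosed all root arrays. Leaf replicate 1 held the highest value of the 6 arrays for 13 UGT genes (28.9%), compared with 17.0% of all probe sets, and leaf replicate 3 the lowest for 12 (26.7%), compared with 19.1%. Without leaf replicate 1 the family's median difference was 0.13 log2, against 0.0062 log2 with all arrays. Root replicate 2 had the widest spread over the UGT genes, as it did over all probe sets (standard deviation 0.51 log2). It held the lowest and the highest value for 10 UGT genes each (22.2%), compared with 19.7% and 19.6% of all probe sets.

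**Figure D4:**
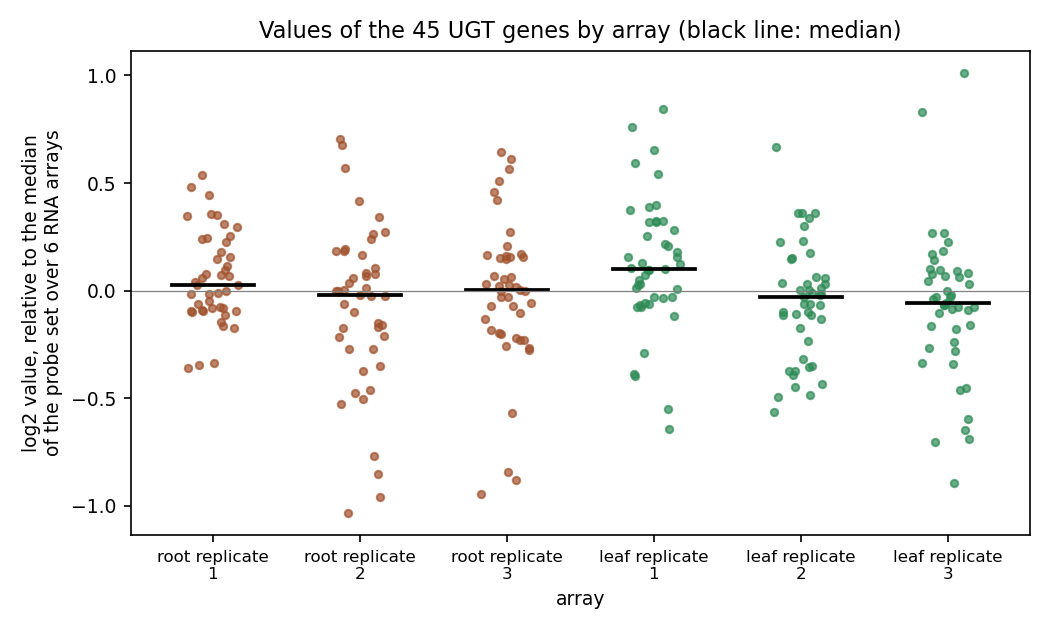
Log2 values of the 45 UGT genes, relative to the median of each probe set over the 6 RNA arrays, on each root array (brown) and each leaf array (green), with a black line at the median. The median lies at 0.099 log2 in leaf replicate 1 and -0.056 log2 in leaf replicate 3, and the root medians lie between them.

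Direction was the same at all 3 replicate numbers for 14 genes, against a background of 34.3% of all probe sets. This held for 8 genes with root higher, against a background of 19.5%, and for 6 genes with leaf higher, against a background of 14.8%. The 8 were UGT87A2, UGT85A7, UGT76D1, UGT71C2, UGT85A3, UGT71B5, UGT80B1 and UGT71B8. The 6 were UGT85A5, UGT84A4, UGT76E11, UGT73C7, UGT73C1 and UGT88A1.

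The spacing of the deposited decimals keeps a coarse trace of signal, since numbers stored in single precision are spaced more widely at higher levels. If the values were stored so before centring, 35 of the 45 UGT probe sets (77.8%) lay at or above a log2 level of 4 on the 6 arrays, compared with 62.1% of all probe sets tested. The 10 on finer spacing were UGT76E11, UGT71B6, UGT73B4, UGT76C1, UGT84B2, UGT80B1, UGT74F1, UGT73B5, UGT71B1 and UGT72E1. UGT85A5 and UGT87A2 were on the wider spacing. This trace entered no test.

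Enzymes around the UGT reaction, from lists chosen with earlier results known, had no gene past the adjusted threshold either. Matching by symbol found 17 beta-glucosidases, 5 genes listed under flavonoid and phenylpropanoid synthesis and 3 family 1 glucosyltransferases under other symbols. It also found 1 gene of UDP-sugar supply and 0 of the 20 symbols for vacuolar and conjugate transport. In limma 0 of these 26 passed over all probe sets in either direction, against a background of 0.34%, and 1, the beta-glucosidase BGLU19, had an unadjusted p under 0.05, against a background of 9.56%. BGLU19 stood at -0.025, 0.79 and 1.33 log2 in root replicates 1 to 3, against 0.025, -0.22 and -0.29 log2 in leaf replicates 1 to 3. Root replicates 2 and 3 were high while root replicate 1 lay just below leaf replicate 1, and the difference was 0.86 ± 0.34 log2 (adjusted p = 0.468). BGLU16 differed by -0.75 ± 0.39 log2 and BGLU32 by -0.49 ± 0.27 log2 (adjusted p = 0.618 and 0.645). Over the 17 beta-glucosidases 7 means were higher in root and 10 in leaf, with a median of -0.10 log2. BGLU45 and BGLU46, which release monolignols from the glucosides that UGT72E enzymes make and were picked for that role after their values were seen, differed by -0.31 ± 0.39 and 0.28 ± 0.26 log2.

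GT72B1, which conjugates monolignols and chlorinated pollutants, had 0.69 ± 0.33 log2 (adjusted p = 0.586), with -0.033, 0.11 and 0.90 log2 in root replicates 1 to 3, against -0.28, 0.033 and -0.84 log2 in leaf replicates 1 to 3. Root and leaf overlapped only in that leaf replicate 2 lay above root replicate 1. UF3GT, of anthocyanin glycosylation, differed by 0.10 ± 0.23 log2 and IAGLU by -0.089 ± 0.32 log2. USP, which makes UDP-sugars from sugar phosphates, differed by -0.45 ± 0.37 log2. The synthesis list ran from -0.18 log2 for DFR, of anthocyanin precursors, to 0.33 log2 for OPCL1, with HCT, of lignin precursors, at -0.12 log2. OPCL1 was on the list but acts in jasmonate synthesis in Arabidopsis, and without it the highest difference was 0.059 log2. The median of the list, OPCL1 included, was 0.051 log2.

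The tissue labels were set against defining genes, from lists chosen with earlier results of these data known, so this is no independent check. All 10 leaf genes of photosynthesis had lower means in root than in leaf. Plastid psbZ, psbH, psbB and psbC passed the adjusted threshold, 4 of 10, against a background of 0.276% of all probe sets higher in leaf. The plastid genes psbA and rbcL did not pass (adjusted p = 0.2795 and 0.371 in limma). Nor did the nuclear leaf genes LHCB4.1, PRK, RCA and LHCB4.2 (adjusted p = 0.359, 0.408, 0.493 and 0.773 in limma). With the replicate block psbB no longer passed (adjusted p = 0.0508). Of 25 symbols for root genes 2 were matched, the root hair expansins EXPA7 and EXPA18, which differed by 0.084 and 0.082 log2 and did not pass, so no defining root gene bore out the root label here. Over all 18810 probe sets 12 passed as higher in root and 52 as higher in leaf.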

How the data were processed

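RNA of Aloe vera root and leaf (3 arrays each) and 1 array of genomic DNA were hybridised to ATH1 arrays. The deposited log2 values were made with RMA, per the submitters' processing notes, and their version is not given in the sources used here. The base of the logarithm is unstated and was taken as 2, the base RMA normally uses. As seen from the values, each probe set was centred on its median over the 6 RNA arrays, within 1e-06. The genomic DNA column held 0 values and was not used. The deposited values covered 18874 probe sets, and whether these are all those of the array was not assessed. After leaving out 64 control probe sets, 18810 were tested, of which 11100 carry 1 gene, 350 several and 7360 none in the platform annotation.

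The difference root minus leaf came from limma 3.58.1 (lmFit and eBayes, under R 4.3.3) on the 6 RNA arrays with no covariate, with Benjamini-Hochberg adjustment over all probe sets. The test was checked on simulated data, in which arrays were independent and replicate number had no effect. Summaries used Python 3.11.15, pandas 2.3.3, NumPy 2.4.6 and SciPy 1.17.1. No 2 arrays were duplicates: the closest differed by a median of 0.301 log2. The number of arrays limits the precision.

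Same-numbered root and leaf arrays deviated together from their tissue means (Pearson r across probe sets 0.12, 0.37 and 0.25 for numbers 1 to 3). Between different numbers r was -0.29 to 0.064. Deviations from a tissue mean sum to 0 within the tissue, so this contrast is partly built in. Only the fit with the replicate block paired the arrays by number. Standard errors, intervals and p-values given without mention of the block are unpaired. Pairing by number is an assumption, since the meaning of the numbers is not given.

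Members and lists were chosen with earlier results of these data known. Array values were given for the 12 members with the smallest p, which include those with a p under 0.05 or no overlap, and for some others where an array stood apart. In each pathway list up to 3 genes with the smallest p were named, and BGLU45, BGLU46 and the leaf genes were named besides, after their values were seen. Alternatives were the replicate block, leaving out each array, quantile normalization, array centring, array weights, a variance trend with robust fitting, and probe sets without a shared-sequence suffix. No genome coordinates or probe sequences were used, so cross-binding between similar UGT genes was not tested.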

Additional observations from a re-analysis of the deposited data

How the results depend on the processing

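Each of the 45 UGT genes was refitted under 12 alternatives, 540 values in all. None was called in any of them (0 of 540, lowest adjusted p 0.206), 466 kept their direction, and 74 turned it, in 24 genes whose difference was at most 0.265 log2 in size. The other 21 genes kept their direction under every alternative. Numbers called among the beta-glucosidases, synthesis, UDP-sugar and other glucosyltransferase lists stayed at 0. The replicate block changed no call of a UGT gene or of these lists, with 0 UGT genes called, and it gave 62 calls over all probe sets, against 64 without it. A variance trend with robust fitting, which rests on centred values, gave 155 calls over all probe sets, 40 higher in root and 115 higher in leaf; the cause was not tested. With 1 array left out, on fewer samples, calls over all probe sets were 7 to 29, with 0 to 5 higher in root and 7 to 28 higher in leaf, the lowest without leaf replicate 3. The family median was lowest without leaf replicate 2, at -0.031 log2, and highest without leaf replicate 1, at 0.13 log2. Signal over background is not known here, so no filter on dim probe sets was run.

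Directions that turned were those of differences of at most 0.265 log2 in size, but some differences below that size, such as those of UGT74F1 and UGT71B8, did not turn. With array weights the root minus leaf differences (log2) were 0.024 for UGT71C3, 0.024 for UGT73B5, -0.012 for UGT76C2, -0.019 for UGT76E2, -0.078 for UGT78D1, 0.020 for UGT78D2, -0.037 for UGT84A1 and 0.0096 for UGT88A1. After quantile normalization they were -0.014 for UGT72B3, -0.0029 for UGT76C2, -0.051 for UGT78D1 and -0.035 for UGT84A1, and after array centring -0.013 for UGT72B3, -0.015 for UGT72E1, -0.0086 for UGT76C2, -0.011 for UGT78D1 and -0.0086 for UGT84A1. With 1 array left out, differences ranged from -0.32 to 0.25 for UGT71B1, from -0.22 to 0.17 for UGT71C3, from -0.20 to 0.082 for UGT71C5, from -0.11 to 0.093 for UGT72B3, from -0.17 to 0.14 for UGT72E1, from -0.26 to 0.060 for UGT72E3, from -0.064 to 0.48 for UGT73B1, from -0.30 to 0.082 for UGT73B5, from -0.46 to 0.20 for UGT73C1, from -0.57 to 0.13 for UGT73C2, from -0.056 to 0.35 for UGT74B1, from -0.21 to 0.18 for UGT76C2. For the other 12 genes the ranges were -0.55 to 0.078 for UGT76E1, -0.51 to 0.13 for UGT76E12, -0.084 to 0.23 for UGT76E2, -0.27 to 0.28 for UGT78D1, -0.36 to 0.28 for UGT78D2, -0.086 to 0.14 for UGT84A1, -0.11 to 0.27 for UGT84A3, -0.031 to 0.36 for UGT84B1, -0.00049 to 0.40 for UGT84B2, -0.089 to 0.19 for UGT85A2, -0.10 to 0.20 for UGT85A4, -0.20 to 0.046 for UGT88A1.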
